A study of Mus musculus with 2 samples.

Results

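The genes described here are 5 mouse microRNA (miRNA) genes known best from gut and liver: Mir192, Mir194-2, Mir215, Mir194-1 and Mir122. They were chosen by name, with earlier results of these data known, and all 5 were among the 1973 miRNA genes listed for E14.5 lung. Small RNA of less than 30 nt was sequenced from lung of B6NCrl mouse embryos of mixed sex at embryonic day 14.5, with no treatment or altered allele named in the labels. The 2 libraries formed 1 group, so the data allow levels and a comparison of replicates, and no comparison of conditions. Each library was described as the lung of 1 pup, although the sex was given as pooled, and the lungs were collected on different days, which cannot be told apart from the replicate. The labels name no sorting of cells, and in such bulk samples fewer cells of a type and less RNA per cell cannot be told apart.

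A miRNA gene is transcribed as a hairpin, which is cut into a duplex whose 5′ (5p) or 3′ (3p) arm is loaded into Argonaute, and the seed near the 5′ end of the loaded strand pairs with target mRNAs. The miR-192, miR-194 and miR-215 miRNAs are abundant in intestine, liver and kidney. Mir122 makes the predominant miRNA of hepatocytes. Lung, liver and gut all arise from the embryonic gut tube, so lung epithelium and these organs share an endodermal origin.

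The members form 2 genomic pairs and a single gene. In GRCm38 (mm10) coordinates, Mir194-2 (chr19:6264643-6264728) and Mir192 (chr19:6264844-6264932) lie on the plus strand, 115 nt apart, between Atg2a and the lincRNA Gm14963, and overlap no other annotated gene. Mir194-1 (chr1:185313319-185313385) and Mir215 (chr1:185313581-185313692) lie 195 nt apart on the plus strand. Both fall in introns of Iars2, the mitochondrial isoleucyl-tRNA synthetase, which is read from the minus strand, and within the antisense transcript 2010103J01Rik, in an intron for Mir194-1 and in an exon for Mir215. Mir122 lies on another chromosome than either pair.

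Sequences decide which of these genes a read can be assigned to, and 4 of the 5 members were matched in the RefSeq miRNA table (GRCm38.p6). The 5p mature miRNAs are shown because they carry the family seeds, with bases 2 to 8 in capitals:
miR-192-5p (Mir192): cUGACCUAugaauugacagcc
miR-215-5p (Mir215): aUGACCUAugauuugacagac
miR-194-5p (Mir194-1 and Mir194-2): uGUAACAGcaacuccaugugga
The seed of miR-192-5p and miR-215-5p was the same, and no other mature miRNA in the table had it. From miR-192-5p to miR-215-5p, with positions counted from 1 at the 5′ end, the substitutions were C1A, A12U and C20A, so 18 of 21 positions were identical and full-length reads of these miRNAs can be told apart. The seed of miR-194-5p belonged to no other mature miRNA in the table.

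The hairpins of the miR-194 copies are shown because they share their whole 5p miRNA, with the mature arms in capitals:
Mir194-2: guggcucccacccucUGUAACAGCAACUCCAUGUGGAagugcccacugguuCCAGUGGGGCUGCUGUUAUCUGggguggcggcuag
Mir194-1: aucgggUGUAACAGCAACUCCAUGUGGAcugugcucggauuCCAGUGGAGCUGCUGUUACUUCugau
The longest run in common was 22 nt, exactly the length of miR-194-5p, and the hairpins differed at the first base on either side of it. The base after miR-194-5p is A in Mir194-2 and C in Mir194-1. The 3p miRNAs differ from miR-194-2-3p to miR-194-1-3p by G8A, U19C, C20U and G22C. A read of the mature 5p sequence alone thus fits both genes, and the deposited tables set multimapping reads apart without assigning them to a gene (32.9% of reads in replicate 1 and 33.1% in replicate 2). Barring reads placed through mismatches, counts of Mir194-1 and Mir194-2 therefore hold reads that reach beyond the shared run or come from the 3p arm, and total miR-194 is a lower bound. The deposited counts do not separate the arms. How many of the multimapping reads were miR-194-5p was not measured.

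The hairpins of the other pair of relatives are shown for comparison, again with the mature arms in capitals:
Mir192: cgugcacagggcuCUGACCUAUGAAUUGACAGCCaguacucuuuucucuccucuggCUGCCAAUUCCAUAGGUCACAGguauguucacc
Mir215: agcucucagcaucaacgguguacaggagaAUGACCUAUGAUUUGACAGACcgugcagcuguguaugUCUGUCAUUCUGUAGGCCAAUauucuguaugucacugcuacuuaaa
Their longest run in common was 10 nt. In the table, the nearest other hairpin to miR-192-5p was that of Mir215, at 3 mismatches, so the counts of these genes are less exposed to shared sequence than those of the miR-194 copies.

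Replicate 1 held 5128214 counts on the strand of a miRNA gene and replicate 2 held 2332032, and levels are given as CPM, each gene's count scaled to a common library total. A gene counted at 0 could have had up to 3 counts, a limit of 0.585 CPM for replicate 1 and of 1.29 CPM for replicate 2. Intervals given per library are 95% exact intervals (Poisson for levels, Clopper-Pearson for shares), and they and this limit hold counting error and nothing else, since reads copied by amplification are not separate molecules. Mature miRNAs of the 4 members with sequences are 21 or 22 nt long, so no scaling by length was made, and how readily each sequence was captured was not measured. Markers of the labelled tissue were present: all 5 epithelial miR-200 genes had more than 3 counts in both libraries, as did all 4 genes of smooth muscle, mesenchyme and endothelium (Mir143, Mir145a, Mir214 and Mir126a).

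Mir192 and Mir194-2, the chromosome 19 pair, were the most abundant members with values between 58.5 and 87.9 CPM. Mir192 had 418 counts in replicate 1, or 81.5 CPM (interval 73.9 to 89.7), and 155 counts in replicate 2, or 66.5 CPM (56.4 to 77.8). Mir194-2 had 300 counts in replicate 1, or 58.5 CPM (52.1 to 65.5), and 205 counts in replicate 2, or 87.9 CPM (76.3 to 100.8). Mir192 was thus the higher gene in replicate 1 and Mir194-2 in replicate 2. Their means, 74.0 ± 10.6 and 73.2 ± 20.8 CPM (SD, n = 2), differed by less than either gene's spread. None of the counts at these genes lay on the opposite strand (0 in each library).

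Mir215 and Mir194-1, the chromosome 1 pair, were near the limit of detection. Mir215 had 8 counts in replicate 1 (1.56 CPM, interval 0.673 to 3.07) and 7 in replicate 2 (3.002 CPM, 1.21 to 6.18), above 3 counts in both. Mir194-1 had 1 count in replicate 1 (0.195 CPM, interval 0.00494 to 1.09) and 4 in replicate 2 (1.72 CPM, 0.467 to 4.39), so it passed 3 counts in replicate 2 alone. Mir194-1 also had 2 counts in each library on the opposite strand, which is the strand of Iars2. In replicate 1 its own strand therefore held fewer counts than the opposite one.

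Mir122, the hepatocyte gene, lay between the pairs. It is annotated on the plus strand of chromosome 18 (65248861 to 65248926 in mm10), in an exon of the lincRNA AC157910.3. Mir122 had 115 counts in replicate 1, or 22.4 CPM (interval 18.5 to 26.9), and 92 counts in replicate 2, or 39.5 CPM (31.8 to 48.4), with a mean of 30.9 ± 12.04 CPM (SD, n = 2). Both libraries were well above the limit of 3 counts, and their intervals did not overlap. On the opposite strand there was 1 count in replicate 1 and 0 in replicate 2.

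**Figure D1:**
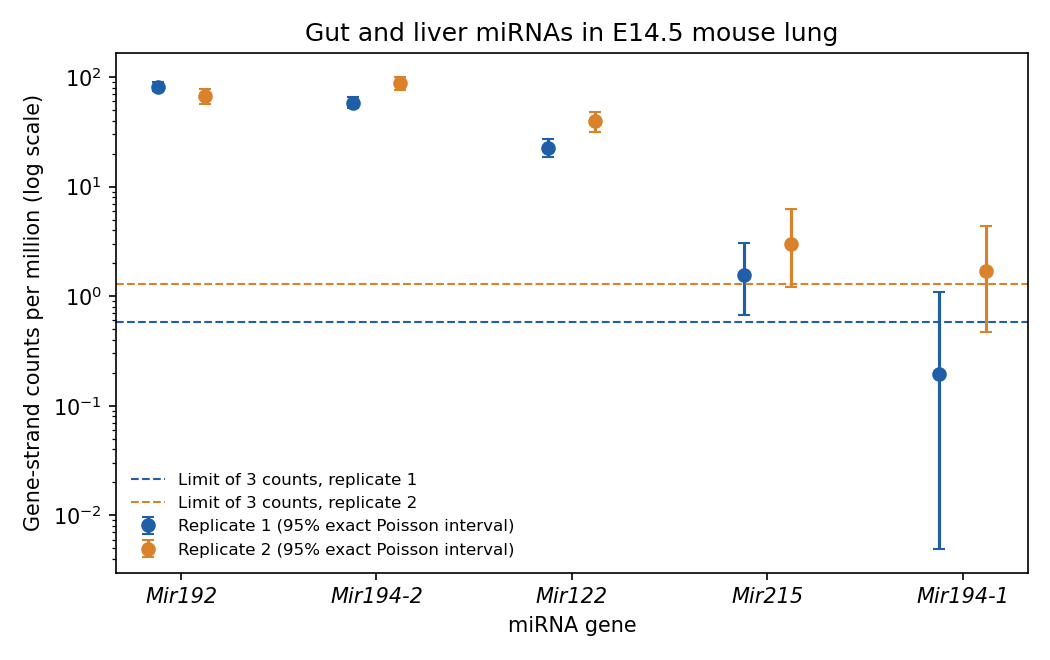
Level of each member in CPM on a log axis, with 1 point per library, 95% exact Poisson intervals as bars and dashed lines at the level of 3 counts in each library. Mir192, Mir194-2 and Mir122 sit between 22.4 and 87.9 CPM, Mir215 sits just above the dashed lines, and Mir194-1 is below its line in replicate 1.

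In order of mean level the members stood as Mir192, Mir194-2, Mir122, Mir215 and Mir194-1. Mir192 and Mir194-2 could not be ordered, since each led in 1 library, whereas Mir122 was below both of them in both libraries. Mir215 (2.28 ± 1.02 CPM) had more counts than Mir194-1 (0.955 ± 1.07 CPM) in both libraries, and their intervals overlapped in each. The interval of their ratio, given below, left out 1 in replicate 1 and held it in replicate 2. This order holds for assigned reads only. Of the 5 members, 4 had more than 3 counts in both libraries, against 19.6% of the 1973 genes listed. At a limit of 10 counts in both libraries the number was 3, against 16.2% of all genes. The members were chosen with earlier results of these data known, so these shares do not set an unselected group beside all genes. The mean of Mir192 ranked 207 among all genes, that of Mir194-2 ranked 209 and that of Mir122 ranked 241. Mir215 ranked 357 and Mir194-1 ranked 430.

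**Figure D2:**
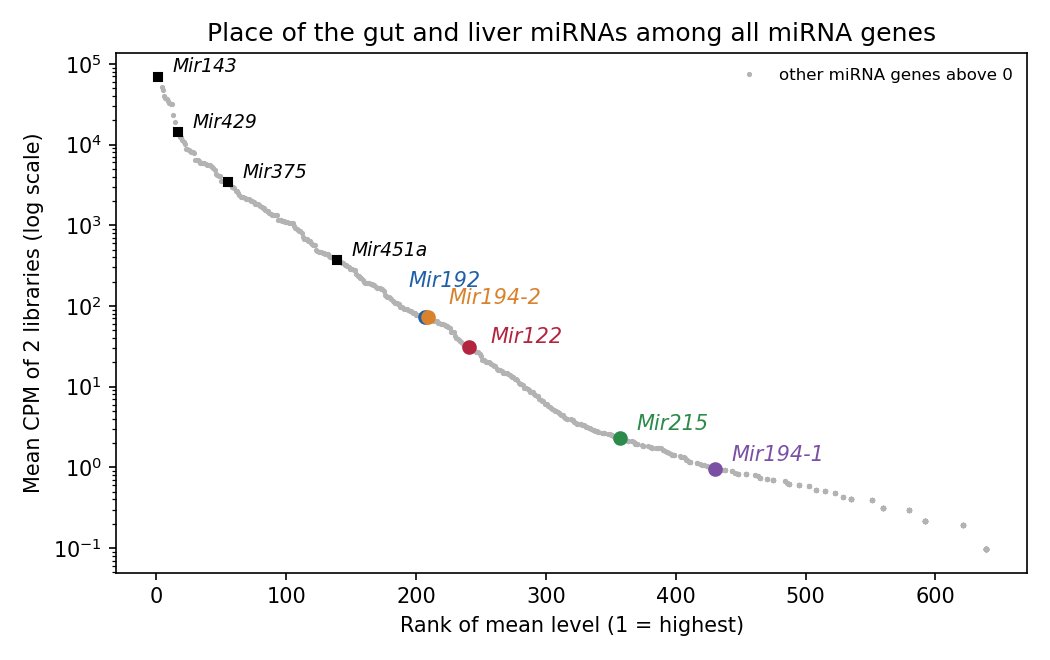
Mean CPM of the 2 libraries on a log axis against rank, for each miRNA gene with at least 1 count, with the members in colour and 4 genes of other lists as black squares. Mir192 and Mir194-2 nearly coincide at ranks 207 and 209, below the erythroid Mir451a at rank 139 and far below Mir143 at rank 1.

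Together the 5 members held 842 counts in replicate 1, a share of 0.0164% (interval 0.0153 to 0.0176), and 463 counts in replicate 2, a share of 0.0199% (0.0181 to 0.0217). Most of the counts from the miR-192, miR-194 and miR-215 genes came from chromosome 19. That pair held 718 of 727 such counts in replicate 1 (98.8%, interval 97.7 to 99.4) and 360 of 371 in replicate 2 (97.0%, 94.8 to 98.5). Of the counts at the 2 genes with the shared 5p seed, Mir192 held 98.1% (96.3 to 99.2) in replicate 1 and 95.7% (91.3 to 98.2) in replicate 2. Of the counts assigned to either miR-194 gene, Mir194-2 held 99.7% (98.2 to 99.99) in replicate 1 and 98.1% (95.2 to 99.5) in replicate 2. The split between the miR-194 genes holds for assigned reads only, since reads that fit both genes count for neither.

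The balance within the chromosome 19 pair differed between the libraries. The count ratio of Mir192 to Mir194-2 was 1.39 in replicate 1 (interval 1.20 to 1.62) and 0.756 in replicate 2 (0.610 to 0.936), a change of -0.88 on the log2 scale. This ratio needs no scaling between libraries. An exact two-sided Fisher test of the 4 counts gave p = 3.03e-06, and an adjusted p of 1.24e-05 over all 127 pairs of neighbouring same-strand miRNA genes within 10000 nt, a family of pairs that was set up after the data had been seen. Such differences were common, since 40.2% of those pairs passed, and the test compares the reads of 2 libraries. All 51 pairs that passed were among the 91 pairs in which each gene had 10 or more counts in each library, as here, a share of 56.0%. Among those 91 pairs, the median absolute change was 0.28 and the 90th percentile 0.61, and 2 pairs changed more than Mir192 and Mir194-2, namely Mir181a-2 with Mir181b-2 and Mir541 with Mir412. The more abundant gene of the pair differed between libraries in 3 of the 91 pairs, this one, Mir302a with Mir302d, and Mir181c with Mir181d. These other pairs are named after their values had been seen. Because reads that fit both miR-194 genes enter neither, the ratio need not be that of the mature miRNAs.

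**Figure D3:**
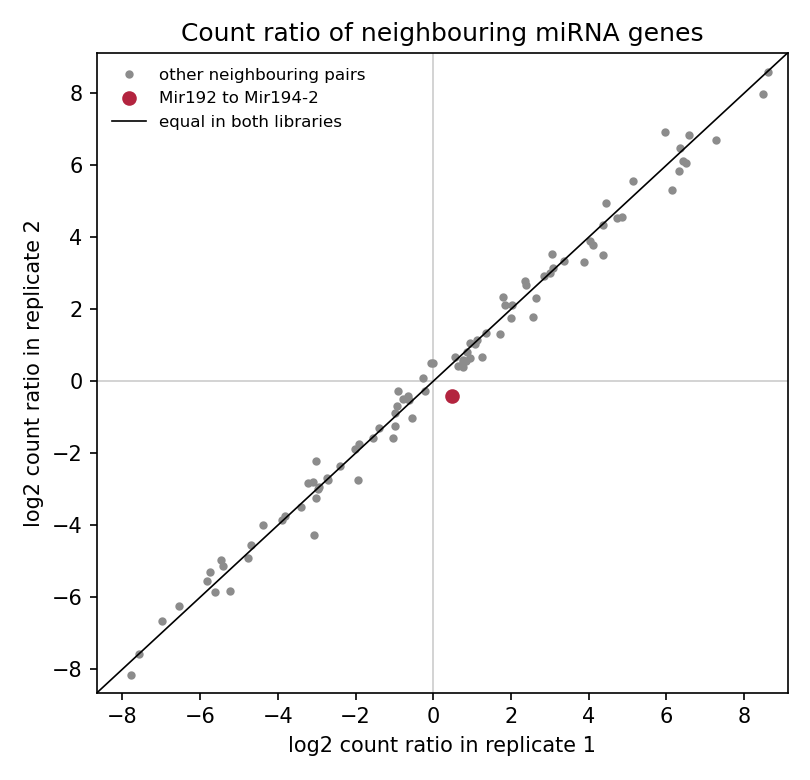
Log2 count ratio of neighbouring miRNA genes in replicate 2 against replicate 1 for the 91 pairs with at least 10 counts in each gene and library, with the line of equality. The red point, Mir192 to Mir194-2, lies at 0.48 in replicate 1 and -0.40 in replicate 2, off the line along which most pairs fall.

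For Mir215 and Mir194-1 the ratio was 8 to 1 counts in replicate 1 (interval of the ratio 1.07 to 355) and 7 to 4 in replicate 2 (0.445 to 8.15). The exact two-sided Fisher test gave p = 0.319 (adjusted over the 127 pairs, 0.513). With 0.5 counts added to each gene, the log2 ratio changed by -1.77, against -0.88 for the other pair. With so few counts this test cannot decide whether the ratio changed, and the change it could have detected was not computed.

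Between the libraries, Mir194-2 and Mir122 were higher in replicate 2 and Mir192 was higher in replicate 1. Log2 ratios of replicate 2 to replicate 1 were taken after TMM scaling and the addition of 1 CPM. Genes with 10 or more counts in the sum of the libraries (404 genes) entered an exact two-sided binomial test, with Benjamini-Hochberg adjustment over all of them. The log2 ratio was 0.70 for Mir122, with an adjusted p of 0.00148 in the exact binomial test, and 0.49 for Mir194-2, with an adjusted p of 0.000588 in the same exact test. For Mir192 it was -0.38, with an adjusted p of 0.0120 (exact binomial test), whereas Mir215, at 0.58, did not pass (exact binomial adjusted p = 0.439). The 95% interval for Mir215, taken from its counts without the added 1 CPM, was -0.84 to 2.51. Mir194-1 was not tested, having 5 counts in all. Thus 3 of the 4 members tested passed, against 41.8% of all genes tested, 2 higher in replicate 2 (17.8% of all genes) and 1 higher in replicate 1 (24.0%). The share called depends on level, and among tested genes with a mean of 10 to 100 CPM, where these 3 members lie, 23 of 95 passed. The median log2 ratio was 0.54 over the 4 members tested and -0.03 over all genes tested.

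The binomial test takes counting error as the only error. An alternative test took its spread from these same libraries, and so from the differences that it then tested. This limits how many genes can pass it. When edgeR's exact test was run with the spread shared by all genes between these libraries (a common dispersion equal to a coefficient of variation of 18.3%), the adjusted p was 1 for each of the 4 members, and 1 of 404 genes (0.248%) passed. That gene was Mir208a of heart muscle, and 16 genes had an unadjusted p under 0.05. On library totals the call of Mir192 was also lost (exact binomial adjusted p = 0.0680), and over the alternatives tried its adjusted p ranged from 0.00395 to 1. On those totals the split of all calls was 112 higher in replicate 2 and 65 higher in replicate 1, against 72 and 97 with TMM. Among the 320 genes that reached 10 counts in each library, 93.1% had a smaller absolute log2 ratio than Mir122, 86.9% than Mir194-2 and 76.9% than Mir192.

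**Figure D4:**
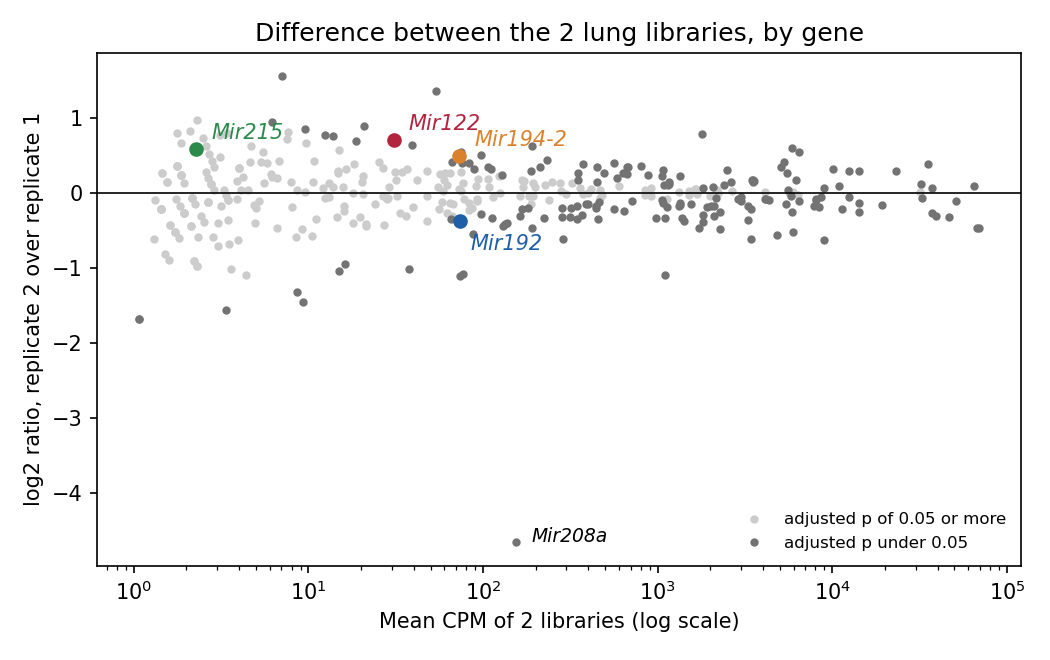
Log2 ratio of replicate 2 to replicate 1 against mean CPM on a log axis for the 404 genes tested, dark where the adjusted p of the exact binomial test was under 0.05. Mir122 (0.70) and Mir194-2 (0.49) lie above 0 and Mir192 (-0.38) below, with Mir122 near the upper edge of the genes of like level. Mir208a lies apart at -4.66.

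Markers of neighbouring or circulating cells were read beside the members, and their part in the members' levels was not tested. Erythroid cells, which fill the liver of the embryo, were listed with Mir451a, Mir144, Mir486 and Mir486b. No deposited identifier matched Mir486b, so its reads are not covered here. The other genes, 3 of 3 matched, had more than 3 counts in both libraries, with sums of 505 CPM (replicate 1) and 404 CPM (replicate 2). Mir451a stood at 394 and 340.5 CPM and Mir144 at 102 and 51.0 CPM in replicates 1 and 2. Both passed the binomial test as lower in replicate 2 (log2 ratios -0.30 and -1.08), the direction of Mir192. Mir486, at 8.77 and 12.9 CPM, had a log2 ratio of 0.42, the sign of Mir122 and Mir194-2, and did not pass (exact binomial adjusted p = 0.314). Of 9 matched genes of striated and heart muscle, 4 had more than 3 counts in both libraries, and the list summed to 370 CPM (replicate 1) and 57.5 CPM (replicate 2), of which Mir208a made up 299 and 11.6 CPM. Of its 5 tested genes, 3 were called lower in replicate 2 (Mir208a, Mir208b and Mir499) and 1 higher, Mir206, at 6.24 and 12.9 CPM. Over all genes tested, 24.0% were called lower in replicate 2 and 17.8% higher. Mir133a-1 and Mir133a-2 of that list were at 0 in both libraries. Of 6 matched neuronal genes, only Mir137 had more than 3 counts in both (86.6 and 78.5 CPM), and the 3 Mir124a genes and Mir9-2 were at 0 in both. Mir133a, Mir124a and Mir9 are annotated as numbered copies, and reads that fit more than 1 copy enter no gene. A count of 0 at these genes therefore does not show that the miRNA was absent. How many such reads there were was not measured.

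The other miRNAs listed for gut, liver, pancreas and kidney were very unequal. Of these 12 genes, 8 had more than 3 counts in both libraries. The leading gene was Mir375 of endocrine cells, whose levels were 3555 CPM for replicate 1 and 3261 CPM for replicate 2. Next came Mir148a at 1014 and 1156 CPM, Mir483 in the Igf2 gene at 1086 and 1050 CPM, and Mir31 at 386 and 411 CPM. At the other end were the genes known from exocrine pancreas. Mir217 had 5 and 3 counts, Mir216a 2 and 1, and Mir216b 1 and 2, so 1 of the 3, Mir217, passed 3 counts, in replicate 1 alone. Mir802, known from liver, pancreas and kidney, had 3 counts in replicate 1 and 0 in replicate 2. These 4 genes were picked for their low counts, and that Mir192, Mir194-2 and Mir122 exceeded them in both libraries follows from that choice. Between the ends lay Mir204, Mir196b, Mir196a-2 and Mir196a-1. Mir204 (459 and 192 counts in replicates 1 and 2) exceeded Mir192 in both libraries, and Mir196b (145 and 184 counts) exceeded Mir122 in both. By assigned reads, Mir196a-2 (50 and 27 counts) and Mir196a-1 (8 and 7) were below Mir122 in both. Of the 8 tested genes of this list, 2 were called higher in replicate 2 (17.8% of all genes tested) and 2 lower (24.0%). The median log2 ratio was 0.05. Those higher were Mir148a (0.10) and Mir196b, at 28.3 and 78.9 CPM (log2 ratio 1.36, exact binomial adjusted p = 3.62e-17). Those lower were Mir375 (-0.21) and Mir483 (-0.14).

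Against the epithelial miR-200 family, which is made throughout lung epithelium, the members were low. That family summed to 33294 CPM in replicate 1 and 33730 CPM in replicate 2, which is 203-fold and 170-fold the sum of the 5 members. Its least abundant gene, Mir200a, exceeded Mir192 by 10.6-fold and 14.4-fold in replicates 1 and 2, Mir194-2 by 14.8-fold and 10.9-fold, and Mir122 by 38.5-fold and 24.3-fold. The stratified epithelium genes Mir205 and Mir203 together stood at 4382 and 4578 CPM. These are ratios of read counts of different sequences, and unequal capture would enter them in both libraries. Reads that fit both miR-194 genes enter neither. The folds over Mir194-2 and over the 5 members therefore hold for assigned reads and not for total miR-194.

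**Figure D5:**
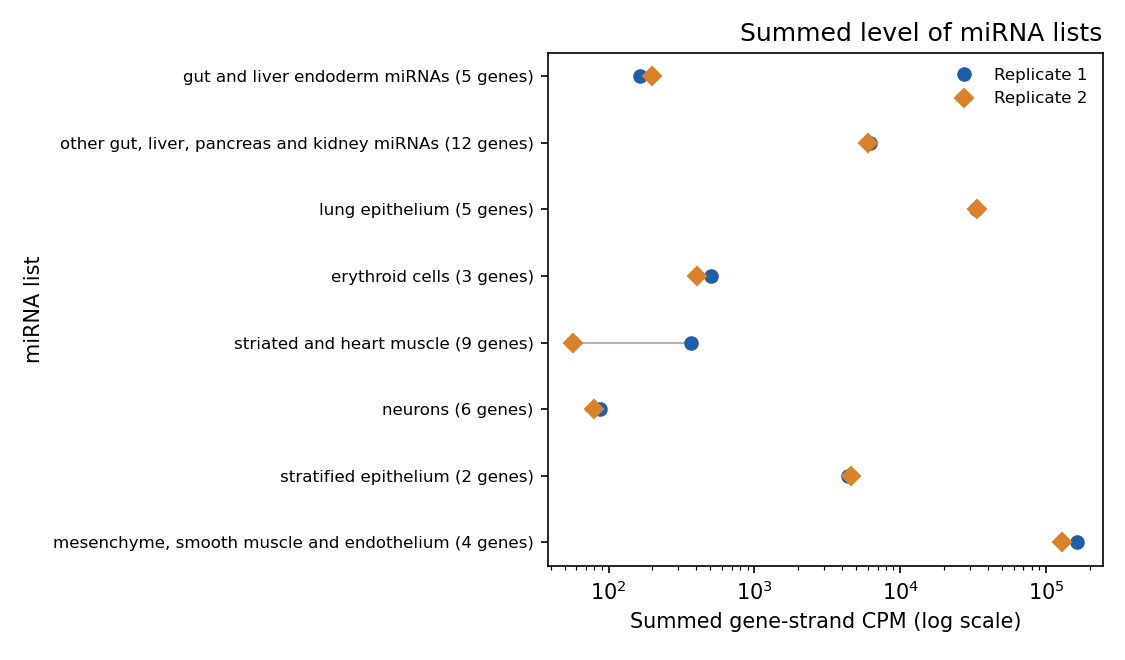
Summed CPM of each miRNA list on a log axis, 1 point per library, with the number of matched genes in brackets. The 5 gut and liver genes sum to 164 and 199 CPM, below every other list except neurons (86.8 and 78.9 CPM) and, in replicate 2, striated and heart muscle (57.5 CPM). Reads that fit more than 1 gene enter no sum, so this order holds for assigned reads only.

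By distance of log2(CPM + 1) over the 2 libraries, the genes nearest to Mir192 were Mir666, Mir412 and Mir615, at 0.22, 0.23 and 0.24. Those nearest to Mir194-2 were Mir877, Mir155 and Mir19a, at 0.06, 0.11 and 0.17. Those nearest to Mir122 were Mir760, Mir669e and Mir702, at 0.31, 0.34 and 0.39. With 2 libraries this likeness is one of level more than of pattern, and neither gene of the chromosome 19 pair was among the 3 nearest to the other.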

How the data were processed

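Libraries of RNA under 30 nt from E14.5 mouse lung (2 biological replicates, 1 group) were analysed. For each, the authors deposited raw counts of each miRNA gene in 3 columns without a header. Judged from their values, the first ignores strand and equals the sum of the gene-strand and opposite-strand columns. Each table also has 4 summary entries that name no gene. Per the deposited readme, reads were aligned to mm10 with GENCODE M4. For the aligner, counter, trimming and use of molecular identifiers, details are not given in the sources read. The summary entries stayed out of all totals: multimapping reads were 32.9% and 33.1% of reads, unmapped reads 12.7% and 11.7%, reads with no feature on either strand 2.63% and 2.44%, and ambiguous reads 0. Multimapping reads enter no gene, which lowers counts of genes with shared sequence. No column of per-sample values lacked a sample (0).

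Gene-strand counts were used. Symbols came from GENCODE M21 (1894 of 1973 identifiers matched, and the rest held 1 count). Genes named are the 5 members, up to 4 genes with the highest mean CPM of each other list, and the 3 genes nearest to each member with at least 10 counts in both libraries. The low and middle genes of the gut and pancreas list, and genes at 0 in marker lists, were named after their values had been seen. Members and lists were chosen with earlier results of these data known. Replicates were compared by exact binomial tests on TMM-scaled library sizes (Benjamini-Hochberg over all genes tested, threshold 0.05), and p-values measure the reads of these libraries. The ratio within a genomic pair was tested by Fisher's exact test. The tests were tried on simulated counts that held counting error alone, so this does not cover spread between libraries. Alternatives were library totals, DESeq2 size factors, other filters, pseudocounts and denominators, the column without regard to strand, leaving out each replicate, and a common dispersion. Software was R 4.3.3, edgeR 4.0.16, DESeq2 1.42.0, Python 3.11.15 and SciPy 1.17.1.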

Additional observations from a re-analysis of the deposited data

How the results depend on the processing

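With multimapping and no-feature reads in the denominator, mean levels were 42.8 CPM for Mir192, 42.4 CPM for Mir194-2, 17.9 CPM for Mir122 and 105 CPM for the sum of the 5 members, against 74.0, 73.2, 30.9 and 181 CPM, because the denominator is larger. The other levels moved by less than 1 SD, which with 2 libraries is always so when 1 replicate is left out. Without 1 replicate, Mir192 ranged from 66.5 to 81.5 CPM, Mir194-2 from 58.5 to 87.9, Mir122 from 22.4 to 39.5, and the log2 ratio of Mir192 to Mir194-2 from -0.40 to 0.48, so its direction rests on which library is used. Log2 ratios between replicates kept their sign under every alternative run: Mir192 from -0.43 to -0.29, Mir194-2 from 0.44 to 0.58 and Mir122 from 0.66 to 0.79. On library totals Mir192 (-0.29) no longer passed (exact binomial adjusted p = 0.0680). With edgeR's common dispersion, Mir192 (-0.38), Mir194-2 (0.49) and Mir122 (0.70) no longer passed (adjusted p = 1 each), and 1 gene was called against 169, since that test adds spread between libraries to counting error. The common dispersion was estimated from the same differences that it was used to test, which limits how many genes can pass. Before 1 CPM was added, DESeq2 size factors shifted log2 ratios by -0.14 against library totals and TMM by -0.09. With 1 CPM added, the low gene Mir215 moved less, from 0.64 on library totals to 0.55 with DESeq2 size factors and 0.58 with TMM. No paired analysis was possible because there is 1 group. Depth limits Mir215 and Mir194-1, where 1 count equals 0.195 CPM (replicate 1) or 0.429 CPM (replicate 2). Mir194-1 is limited as well by reads of miR-194-5p, which fit both miR-194 genes and enter neither at any depth.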
